A study of Mus musculus with 16 samples.

Results

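The genes described here are 35 genes of DNA replication and S phase, measured in heart tissue of C57BL/6 mice after exposure to an aggressor mouse. They are the array features outside the control spots whose gene name is 1 of the 35 listed names. All 35 names were on the array, out of 34844 gene names in all, with 47 probes between them. Of the 35, 33 were tested, and Ccne2 (cyclin E2) and the repair gene Brca1 were not well above background on any array. The 4 groups held 4 hearts each, 1 heart per array. Control mice were kept in wire mesh boxes in a cage that held no aggressor, and their labels name the 2-day, 1-day-rest setting. T1R1, T2R1 and T3R1 mice spent 1, 2 and 3 days, 6 hours a day, in such a box in the cage of an aggressor, with short bouts of attack, and then had 1 day of rest. T1R1 and T3R1 have no control of their own duration, and the labels' general treatment text gives longer exposures than the group names, which were followed here. The labels give neither age nor sex.

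Before S phase, the loading factors Cdc6 and Cdt1 place the ring-shaped MCM helicase on replication origins. Cyclin E and its kinase then help to activate the helicase together with the GINS complex, primase and DNA polymerases copy the strands on the sliding clamp PCNA, and nucleotide enzymes, chaperones and ligases supply and finish the new chromatin. Many of these genes are targets of E2F transcription factors, so their transcripts mark cells that enter the cell cycle. In the adult heart, muscle cells rarely replicate DNA, and most cells in S phase are other cell types such as fibroblasts, endothelial cells and macrophages.

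A level here is the log2 processed signal of the gene's probe minus the 75th percentile of its array, so 0 lies at that percentile and a difference of 1 is 2-fold. Levels of different genes come from different probes and are not set against each other. The arrays lay on 2 slides, with T3R1 and control on 1 and T1R1 and T2R1 on the other. For T3R1 against T1R1 or T2R1, and for T1R1 or T2R1 against control, slide and exposure cannot be told apart. The pairs that share a slide are T3R1 with control and T2R1 with T1R1. All 9 cardiomyocyte markers were well above background on the 16 arrays. Control replicate 1 stood apart: its 75th percentile was at a signal of 547, against 257 to 273 in the other 3 control hearts, and its summed level of cardiomyocyte markers was the lowest of the 16, at 0.619 times the geometric mean over arrays. The 75th percentile was 283 to 407 in the exposed hearts, and 46.5% to 67.1% of spots were well above background over the 16 arrays. Results that rest on the control group are given with and without it.

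The replication genes were higher in T3R1 hearts than in T1R1 hearts, with T2R1 means between them for most genes. Of the 33 genes tested, 23 rose in T3R1 against T1R1 and 0 fell (limma, adjusted p under 0.05), where 7.63% of all genes rose and 15.3% fell. The median difference was 0.98 on the log2 scale, against -0.07 for all genes tested. The 4 arrays of T3R1 lay above the 4 of T1R1 for 25 genes, where 9.53% of all genes did so. These counts and the median include Cdc6, which was well above background on all 4 arrays only in T3R1. It was thus kept through that group alone. In whole tissue, more cells in S phase and more RNA per cell cannot be told apart.

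The rise was not carried by a single role. Among the MCM helicase and its loading factors 7 of 9 genes rose, with Cdc6, kept only through T3R1, among the 7. Among the polymerases, primase, clamp and clamp loader 6 of 8 rose, and in nucleotide supply 3 of 5. Of the chromatin genes 3 of 3 rose, of the G1/S regulators 2 of 3, of GINS 1 of 2 and of the joining and repair genes 1 of 3. The 10 genes that did not pass had differences between -0.34 for Tyms and 0.98 for Prim1, and Tyms was the only 1 of the 33 with a negative difference. The group means stood in the order T1R1, T2R1, T3R1 from low to high for 27 of the 33 genes, where 17.7% of all genes had that order. The order of means carries no test.

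**Figure D1:**
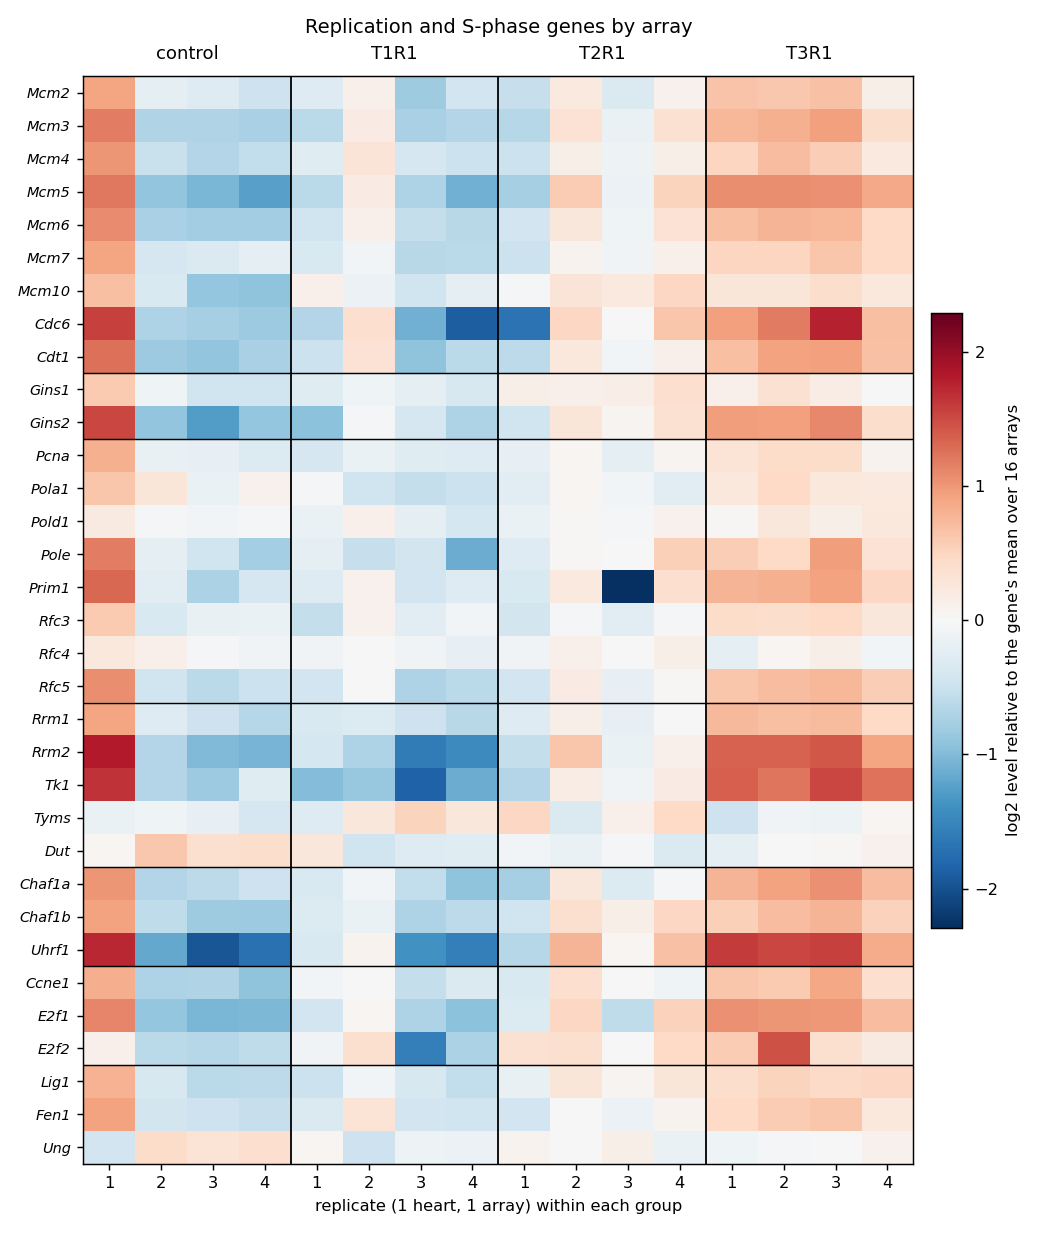
Heat map of the 33 tested genes (rows, grouped by role with lines between roles) on the 16 arrays (columns, by group and replicate). Colour gives the log2 level relative to the gene's own mean, red above it and blue below. The 4 T3R1 columns and control replicate 1 are mostly red, T1R1 and control replicates 2 to 4 mostly blue, and Tyms, Dut and Ung do not follow.

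Markers of several other cell types moved with the replication genes, and others did not. The summed level of 8 macrophage markers, all measured, was 1.19 to 1.52 times its geometric mean over arrays in T3R1 hearts, against 0.80 to 0.92 in T1R1, 0.85 to 1.02 in T2R1 and 0.75 to 0.87 in control replicates 2 to 4, with 1.46 in control replicate 1. For 8 fibroblast markers, all measured, it was 1.31 to 1.56 in T3R1, against 0.68 to 0.82 in T1R1, 0.89 to 1.01 in T2R1 and 0.84 to 0.92 in control replicates 2 to 4, with 1.25 in control replicate 1. In T3R1 against T1R1, 6 of the 8 macrophage and 6 of the 8 fibroblast markers rose, where 7.63% of all genes rose and 15.3% fell. Endothelial markers, 7 of 7 measured, covered 0.83 to 0.96 in T3R1 and 0.94 to 1.07 in T1R1, and 1 of the 7 fell. The 9 cardiomyocyte markers, of which 0 passed and 8 had negative differences, covered 0.78 to 1.07 in T3R1 and 0.96 to 1.06 in T1R1. Adipocyte markers, 6 of 6 measured, covered 0.87 to 1.90 in T3R1, against 0.28 to 1.83 in T1R1, 0.50 to 1.07 in T2R1 and 0.86 to 3.07 in control. Control replicate 1 was the highest, control replicate 4 was next at 2.72, and T1R1 replicate 1 was at 1.83. These markers thus did not follow the replication genes heart by heart, although 2 of them rose in T3R1 against T1R1. Of 5 nerve and Schwann cell markers, all measured, 3 rose, with sums of 0.97 to 1.26 in T3R1, against 0.65 to 1.09 in T1R1, 0.71 to 1.02 in T2R1 and 1.13 to 1.65 in control. The part of these cell types in the result was not tested.

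The 250 bases before the start of Mcm5 and Mcm6, both subunits of the MCM ring, and of Uhrf1, which reads hemimethylated DNA behind the fork, are shown because these 3 genes are among those that rose in T3R1 against T1R1 and their upstream sequence holds the letters of E2F sites. They were chosen after their values were seen. Capitals mark matches to TTTGGCGC, TTTCGCGC, TTTCCCGC or TTTGCCGC on either strand, and a run of more than 8 capitals holds matches that overlap. The sequences are those of RefSeq on GRCm38.p6, read 5′ to 3′ along the gene: Mcm5 at chr8:75109259-75109508, plus strand, Mcm6 at chr1:128359706-128359955, minus strand, and Uhrf1 at chr17:56304063-56304312, plus strand.
Mcm5: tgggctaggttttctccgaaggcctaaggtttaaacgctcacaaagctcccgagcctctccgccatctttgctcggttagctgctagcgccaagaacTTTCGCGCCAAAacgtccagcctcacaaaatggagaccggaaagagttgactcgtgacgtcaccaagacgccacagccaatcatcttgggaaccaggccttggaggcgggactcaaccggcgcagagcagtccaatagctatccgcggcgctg
Mcm6: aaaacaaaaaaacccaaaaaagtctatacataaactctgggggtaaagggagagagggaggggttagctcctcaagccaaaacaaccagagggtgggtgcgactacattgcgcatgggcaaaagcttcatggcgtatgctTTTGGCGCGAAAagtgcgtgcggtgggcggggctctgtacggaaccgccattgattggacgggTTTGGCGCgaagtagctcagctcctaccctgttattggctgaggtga
Uhrf1: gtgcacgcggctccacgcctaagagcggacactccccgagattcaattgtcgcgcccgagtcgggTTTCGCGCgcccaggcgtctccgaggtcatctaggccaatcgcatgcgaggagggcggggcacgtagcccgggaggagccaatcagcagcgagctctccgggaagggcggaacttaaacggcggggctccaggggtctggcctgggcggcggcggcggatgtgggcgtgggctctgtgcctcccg
Promoters of 30 of the 35 genes were found. Within 300 bases, 250 before the start and 50 after it, 12 of the 30 held a match (40.0%), where 2.6% of 27025 genes did. Of 33 other replication genes with a promoter 13 held one (39.4%), and of 20 mitosis genes 1 (5.0%). The 12 genes with a match were Cdc6, Cdt1, E2f2, Lig1, Mcm3, Mcm5, Mcm6, Mcm7, Pola1, Pold1, Rfc3 and Uhrf1, and 12 of 12 rose in T3R1 against T1R1, with a median difference of 1.10. The count of 12 and its median include Cdc6, which was well above background on 1 of 4 T1R1 arrays. Of the 17 tested genes without a match 9 rose, with a median of 0.88. All 20 mitosis genes measured rose as well, some of them kept only through T3R1. Whether a match goes with the rise was not tested. The letters TTTGAA, of the cell cycle homology element of mitotic promoters, were in 10.0% of the 30 promoters, 75% of the mitosis genes and 20.2% of all genes, and CCAAT, the NF-Y box, in 53.3% of the 30 promoters, 90.0% of the mitosis genes and 41.1% of all genes. A match is a description of letters and not a site of binding.

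Among the regulators of entry into S phase, E2f1, an activator of replication genes, stood at -0.23, -2.23, -2.39 and -2.39 in control hearts, -1.79, -1.31, -2.05 and -2.29 in T1R1, -1.66, -0.87, -1.93 and -0.82 in T2R1 and -0.31, -0.34, -0.35 and -0.65 in T3R1. Its T3R1 arrays lay above those of T1R1 and T2R1, and control replicate 1 was above the 4 T3R1 hearts. E2f1 was 2.73-fold higher in T3R1 than in T1R1 (log2 difference 1.45 ± 0.42, SE, n = 4 per group, limma adjusted p = 0.0227). E2f2, a second activator, stood at 0.36, -0.38, -0.41 and -0.34 in control hearts, 0.16, 0.61, -1.33 and -0.49 in T1R1, 0.58, 0.61, 0.23 and 0.69 in T2R1 and 0.83, 1.69, 0.61 and 0.44 in T3R1. Its T3R1 and T1R1 arrays overlapped, since T1R1 replicate 2 was above T3R1 replicate 4, while all T3R1 arrays lay above the 4 control arrays, as they did for no other of the 33 genes, where 3.18% of all genes did so. It rose by 1.16 ± 0.36 against T1R1 (adjusted p = 0.0321). Ccne1, cyclin E1, missed the threshold at 0.86 ± 0.30 (adjusted p = 0.0562), with separate arrays.

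The helicase genes mostly rose in T3R1 against T1R1, with T3R1 hearts close to each other. Mcm5 stood at 1.65, -0.44, -0.60 and -0.80 in control hearts, -0.17, 0.64, -0.26 and -0.65 in T1R1, -0.31, 1.04, 0.32 and 0.97 in T2R1 and 1.51, 1.51, 1.50 and 1.32 in T3R1. The T3R1 hearts lay close together above all T1R1 and T2R1 hearts, and below control replicate 1. Mcm5 was 2.97-fold higher in T3R1 than in T1R1 (1.57 ± 0.46, adjusted p = 0.0253), and its probe lies at chr8:77651350-77651410 of mm9, the build of the array design. Mcm6 stood at 3.96, 2.13, 2.08 and 2.08 in control hearts, 2.41, 2.99, 2.33 and 2.24 in T1R1, 2.43, 3.13, 2.78 and 3.20 in T2R1 and 3.56, 3.66, 3.63 and 3.32 in T3R1. All T3R1 arrays were above all T1R1 and T2R1 arrays. The difference from T1R1 was 1.05 ± 0.35 (adjusted p = 0.0435).

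Mcm7, another ring subunit, stood at 2.33, 1.04, 1.09 and 1.21 in control hearts, 1.08, 1.36, 0.79 and 0.80 in T1R1, 0.94, 1.52, 1.35 and 1.55 in T2R1 and 1.93, 1.92, 2.07 and 1.88 in T3R1. T3R1 again lay above T1R1 without overlap, 1.91-fold (0.94 ± 0.24, adjusted p = 0.0138, probe at chr5:138605925-138605984). Mcm3 and Mcm2 rose by 1.19 ± 0.38 and 0.88 ± 0.28, whereas Mcm4, the remaining subunit listed, was at 0.71 ± 0.31 (adjusted p = 0.115) with overlapping arrays. The loading factor Cdt1 rose by 1.23 ± 0.40 (adjusted p = 0.0416). Cdc6, which loads the ring with Cdt1, also passed (adjusted p = 0.0341), but it was well above background on 4 of 4 T3R1 arrays and on 1 of 4 T1R1 arrays, so its size is not given, and its second probe did not pass (adjusted p = 0.272). Mcm10, which helps to start unwinding, was at 0.48 ± 0.27 (adjusted p = 0.216).

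The helicase cofactors of the GINS complex differed in size. Gins2 stood at -0.15, -2.57, -2.95 and -2.57 in control hearts, -2.61, -1.72, -2.07 and -2.38 in T1R1, -2.13, -1.39, -1.62 and -1.33 in T2R1 and -0.72, -0.74, -0.58 and -1.27 in T3R1. T3R1 lay above T1R1 and T2R1 without overlap, T2R1 replicate 1 lay among the T1R1 hearts, and control replicate 1 was the highest. Gins2 rose by 1.37 ± 0.47 against T1R1 (adjusted p = 0.0474). Gins1 stood at -0.0039, -0.70, -1.06 and -1.06 in control hearts, -0.88, -0.70, -0.82 and -0.96 in T1R1, -0.47, -0.49, -0.45 and -0.22 in T2R1 and -0.49, -0.25, -0.42 and -0.62 in T3R1. Its T3R1 arrays were above those of T1R1 but overlapped those of T2R1, and the difference of 0.39 ± 0.19 from T1R1 did not pass (adjusted p = 0.139).

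At the fork itself, Pcna, the sliding clamp, stood at 4.13, 3.14, 3.14 and 3.00 in control hearts, 2.93, 3.16, 3.05 and 3.02 in T1R1, 3.14, 3.37, 3.11 and 3.38 in T2R1 and 3.63, 3.74, 3.75 and 3.39 in T3R1. The lowest T3R1 heart was just above the highest T2R1 heart, and control replicate 1 was above them all. Pcna was 1.5-fold higher in T3R1 than in T1R1 (0.59 ± 0.19, adjusted p = 0.0426). Pola1, the catalytic subunit of the polymerase that extends primers, stood at 0.50, 0.14, -0.29 and -0.03 in control hearts, -0.17, -0.58, -0.68 and -0.63 in T1R1, -0.37, -0.09, -0.21 and -0.38 in T2R1 and 0.11, 0.32, 0.10 and 0.08 in T3R1. Its pattern differed from that of the helicase genes, with T1R1 replicates 2 to 4 lowest and control replicate 2 within the T3R1 range. Pola1 was 1.59-fold higher in T3R1 than in T1R1 (0.67 ± 0.15, adjusted p = 0.00696, probe at chrX:90550189-90550248).

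Rfc5, a subunit of the clamp loader, stood at 1.68, 0.16, 0.0027 and 0.13 in control hearts, 0.17, 0.62, -0.08 and -0.0054 in T1R1, 0.19, 0.81, 0.43 and 0.65 in T2R1 and 1.26, 1.32, 1.39 and 1.19 in T3R1. T3R1 was above T1R1 and T2R1 without overlap, by 1.12 ± 0.30 over T1R1 (adjusted p = 0.0155). A second, dimmer probe of Rfc5 was at -0.12, so the probes disagree for this gene. Among the other subunits Rfc3 rose by 0.57 ± 0.18, and Rfc4 was at 0.06 ± 0.09 (adjusted p = 0.701, 95% interval -0.15 to 0.26), with a second probe at 0.07. The polymerase genes Pole and Pold1, of the leading and lagging strand, rose by 1.15 ± 0.34 and 0.34 ± 0.11. Prim1, the primase subunit that makes the RNA primer, was at 0.98 ± 0.51 (adjusted p = 0.179). Its T2R1 replicate 3 lay at -2.48, against -0.54, 0.02 and 0.20 in the other T2R1 hearts.

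The supply of nucleotides held the 2 largest differences, Tk1 and Rrm2, and also genes that did not pass. Tk1, thymidine kinase of the salvage pathway, stood at 1.40, -0.92, -1.08 and -0.53 in control hearts, -1.23, -1.11, -2.10 and -1.39 in T1R1, -0.92, -0.07, -0.32 and -0.05 in T2R1 and 1.11, 0.97, 1.28 and 1.00 in T3R1. The 4 T3R1 hearts were above all 8 T1R1 and T2R1 hearts, and only control replicate 1 was higher. Tk1 was 5.85-fold higher in T3R1 than in T1R1 (2.55 ± 0.43, adjusted p = 0.000992, probe at chr11:117676845-117676904), and a second probe was at 2.38. Rrm2, the inducible subunit of ribonucleotide reductase, stood at 1.89, -0.60, -0.94 and -0.99 in control hearts, -0.32, -0.64, -1.52 and -1.38 in T1R1, -0.47, 0.72, -0.08 and 0.20 in T2R1 and 1.43, 1.42, 1.49 and 0.98 in T3R1. T3R1 was again above T1R1 and T2R1 without overlap, 4.91-fold over T1R1 (2.30 ± 0.52, adjusted p = 0.00636, probe at chr12:25398824-25398883).

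Rrm1, the large subunit of the same enzyme, stood at 2.06, 0.86, 0.67 and 0.50 in control hearts, 0.80, 0.84, 0.67 and 0.52 in T1R1, 0.85, 1.28, 0.97 and 1.16 in T2R1 and 1.89, 1.83, 1.88 and 1.62 in T3R1. T1R1 and control replicates 2 to 4 covered almost the same range, and T3R1 lay above both. The difference from T1R1 was 1.10 ± 0.25 (adjusted p = 0.00669, probe at chr7:109617223-109617283). Tyms, thymidylate synthase, was at -0.34 ± 0.19 (adjusted p = 0.219), with T3R1 arrays between -2.28 and -1.77 and T1R1 arrays between -2.10 and -1.30. Dut, the dUTPase that keeps uracil out of DNA, stood at 1.19, 1.77, 1.52 and 1.55 in control hearts, 1.40, 0.70, 0.86 and 0.86 in T1R1, 1.08, 0.99, 1.10 and 0.82 in T2R1 and 0.93, 1.16, 1.17 and 1.24 in T3R1. Control replicates 2 to 4 were the highest arrays of Dut, and the 3 exposed groups overlapped. Dut was at 0.17 ± 0.15 in T3R1 against T1R1 (adjusted p = 0.44).

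**Figure D2:**
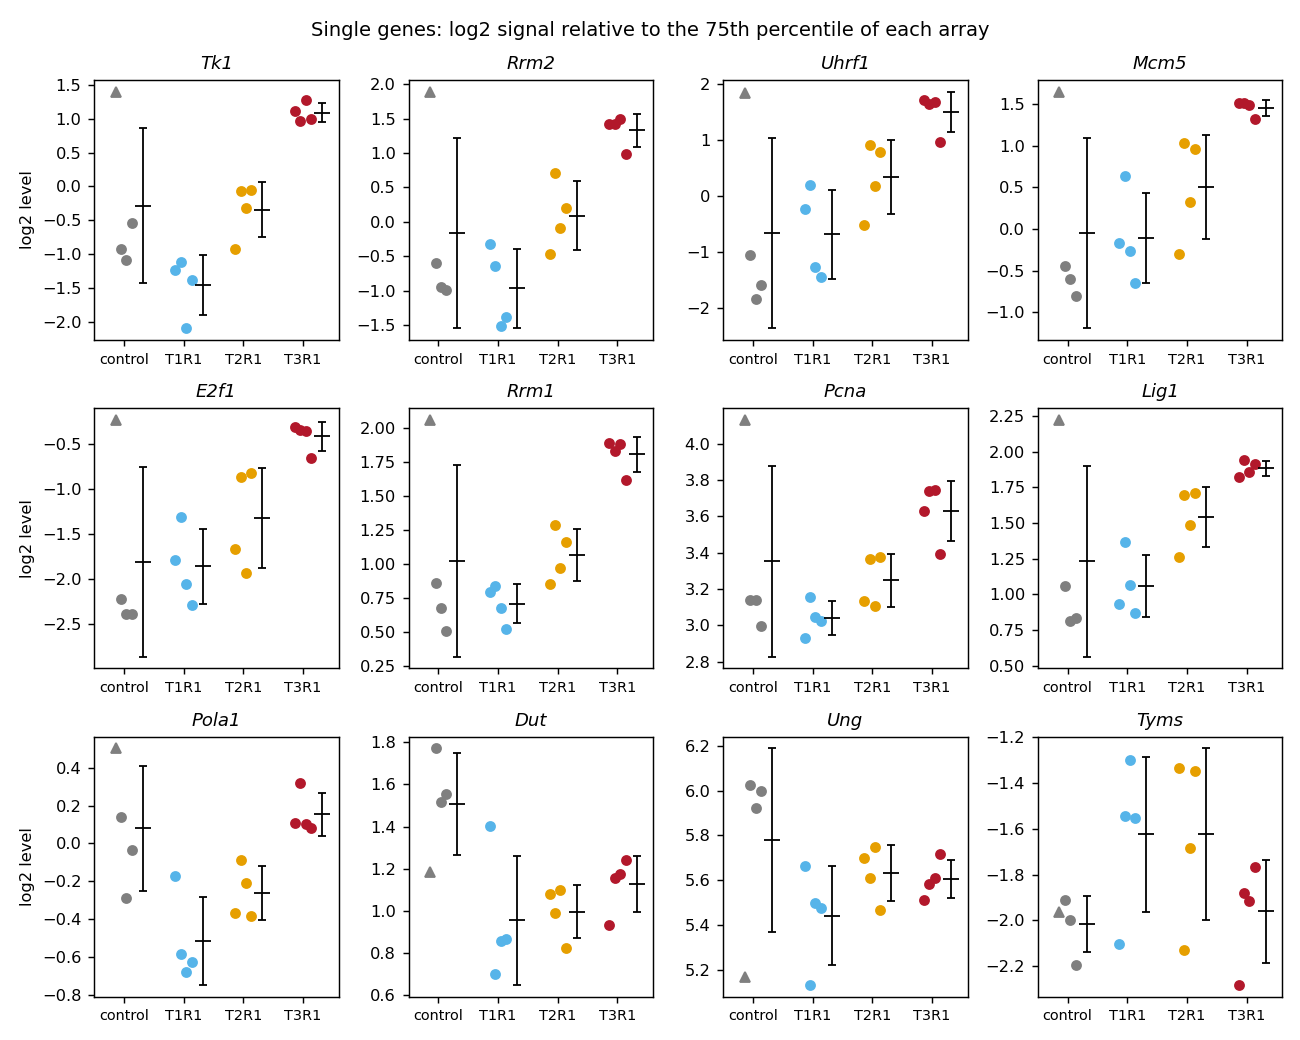
Log2 level of 12 genes on every array, with groups from control to T3R1 on the horizontal axis. Each point is 1 heart, the triangle is control replicate 1, and the bar beside each group is its mean and SD (n = 4). For Tk1 the T3R1 hearts sit between 0.97 and 1.28 and the T1R1 hearts between -2.10 and -1.11, whereas Dut and Ung are highest in control replicates 2 to 4.

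The 3 genes of chromatin behind the fork rose together. Chaf1a, the large subunit of the histone chaperone CAF-1, stood at 0.0061, -1.66, -1.59 and -1.47 in control hearts, -1.36, -1.06, -1.57 and -1.92 in T1R1, -1.76, -0.74, -1.31 and -1.04 in T2R1 and -0.22, -0.08, 0.05 and -0.30 in T3R1. T3R1 did not overlap with T1R1 or T2R1. The difference from T1R1 was 2.53-fold (1.34 ± 0.33, adjusted p = 0.00955, probe at chr17:56206969-56207028). Uhrf1 stood at 1.84, -1.06, -1.84 and -1.59 in control hearts, -0.24, 0.19, -1.27 and -1.45 in T1R1, -0.53, 0.90, 0.17 and 0.79 in T2R1 and 1.72, 1.65, 1.68 and 0.97 in T3R1. T3R1 replicate 4 was lower than the other T3R1 hearts but still above all T1R1 and T2R1 hearts, and control replicates 2 to 4 lay with the lower T1R1 hearts. Uhrf1 was 4.57-fold higher in T3R1 than in T1R1 (2.19 ± 0.66, adjusted p = 0.0275, probe at chr17:56462770-56462829). Chaf1b, the middle CAF-1 subunit, rose by 1.09 ± 0.32, and its second probe was at 1.93.

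Of the joining and repair genes, Lig1, the ligase that seals Okazaki fragments, stood at 2.22, 1.06, 0.82 and 0.83 in control hearts, 0.93, 1.37, 1.06 and 0.87 in T1R1, 1.27, 1.70, 1.49 and 1.71 in T2R1 and 1.83, 1.94, 1.86 and 1.91 in T3R1. T3R1 lay above both other exposed groups, and only control replicate 1 was higher. Lig1 rose by 0.83 ± 0.25 against T1R1 (adjusted p = 0.0264). Fen1, the flap nuclease that trims those fragments, was at 0.70 ± 0.28 (adjusted p = 0.0836). Ung, which removes uracil from DNA, stood at 5.17, 6.03, 5.92 and 6.00 in control hearts, 5.66, 5.13, 5.50 and 5.48 in T1R1, 5.70, 5.61, 5.75 and 5.47 in T2R1 and 5.51, 5.58, 5.61 and 5.72 in T3R1. The 3 exposed groups overlapped, and control replicate 1 was the lowest control heart instead of the highest. Ung was at 0.16 ± 0.17 in T3R1 against T1R1 (adjusted p = 0.514).

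The count of 23 depended on single arrays although the median difference moved little. It was 12, 8 and 7 without T1R1 replicate 1, 3 or 4, and 8, 8 and 10 without T3R1 replicate 1, 2 or 3, at median differences between 0.86 and 1.09. Without control replicate 1 it was 28, where 11.1% of all genes rose, and without both that heart and T1R1 replicate 1 it was 29, where 10% of all genes rose. For the fits without 1 exposed heart alone, the shares of all genes are not given. Their smaller counts are thus not read as particular to these genes. Mcm7, Pola1, Rfc5, Rrm1, Rrm2, Tk1 and Chaf1a passed in 28 of 28 alternatives, although the second probe of Rfc5 disagrees. Scaling each array by its median instead of its 75th percentile moved the median of all genes to 0.33 in T3R1 against T1R1, with 7463 genes higher and 1283 lower in place of 1729 and 3454, and 32 of the 33 genes rose.

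Within a slide, 0 of the 33 genes passed in T3R1 against all 4 control hearts (limma, adjusted p under 0.05). Of all genes 0.503% rose and 0.19% fell, and a fit of only these 2 groups also gave 0 of the 33. At an unadjusted p under 0.05, 22 were higher and 1 lower, where 9.1% of all genes were higher. The median difference was 0.76 against -0.08 for all genes. Cdc6, kept only through T3R1, is among the 22. Control replicate 1 was above every T3R1 array for 25 genes, was the highest of the 16 arrays for 25, where 9.6% of all genes had it highest, and lay above the other 3 control hearts for 30.

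Without control replicate 1, 26 genes rose in T3R1 against control and 2 fell, where 10.2% of all genes rose and 19.2% fell, and the median difference was 1.13. The T3R1 arrays lay above control replicates 2 to 4 for 28 genes, where 14.4% of all genes did so. The 9 helicase and loading genes all rose, led by Mcm5 at 2.07 ± 0.31 (3 control hearts, adjusted p = 0.000669), as did both GINS genes, the 3 chromatin genes and the 3 G1/S regulators measured. Of the 9, Cdc6 was well above background on 4 of 4 T3R1 arrays but on 1 of 4 control arrays. It was thus kept through T3R1, and its size is not given. Uhrf1 was higher by 3.00 ± 0.42 (adjusted p = 0.000403), Rrm2 by 2.17 ± 0.30 (adjusted p = 0.0004) and E2f1 by 1.92 ± 0.27 (adjusted p = 0.000397). With all 4 control hearts the same differences were 2.16 ± 0.66 for Uhrf1 (adjusted p = 0.093), 1.49 ± 0.52 for Rrm2 (adjusted p = 0.123) and 1.40 ± 0.42 for E2f1 (adjusted p = 0.091).

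Dut and Ung were the 2 of the 33 genes that fell without control replicate 1, a count below the 19.2% of all genes that fell. They were singled out after their values were seen. Dut fell by 0.49 ± 0.15 (adjusted p = 0.0235) and Ung by 0.38 ± 0.11 (adjusted p = 0.0225) in T3R1 against control replicates 2 to 4. With all 4 control hearts they were at -0.38 ± 0.15 (adjusted p = 0.161) and -0.17 ± 0.17 (adjusted p = 0.557). Pola1, Pold1, Prim1, Rfc4 and Tyms did not pass in either fit, with 0.21, 0.21, 1.19, -0.02 and 0.07 when control replicate 1 was left out. Pola1, which rose in T3R1 against T1R1, thus lay close to control in T3R1. Both comparisons share the T3R1 hearts.

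**Figure D3:**
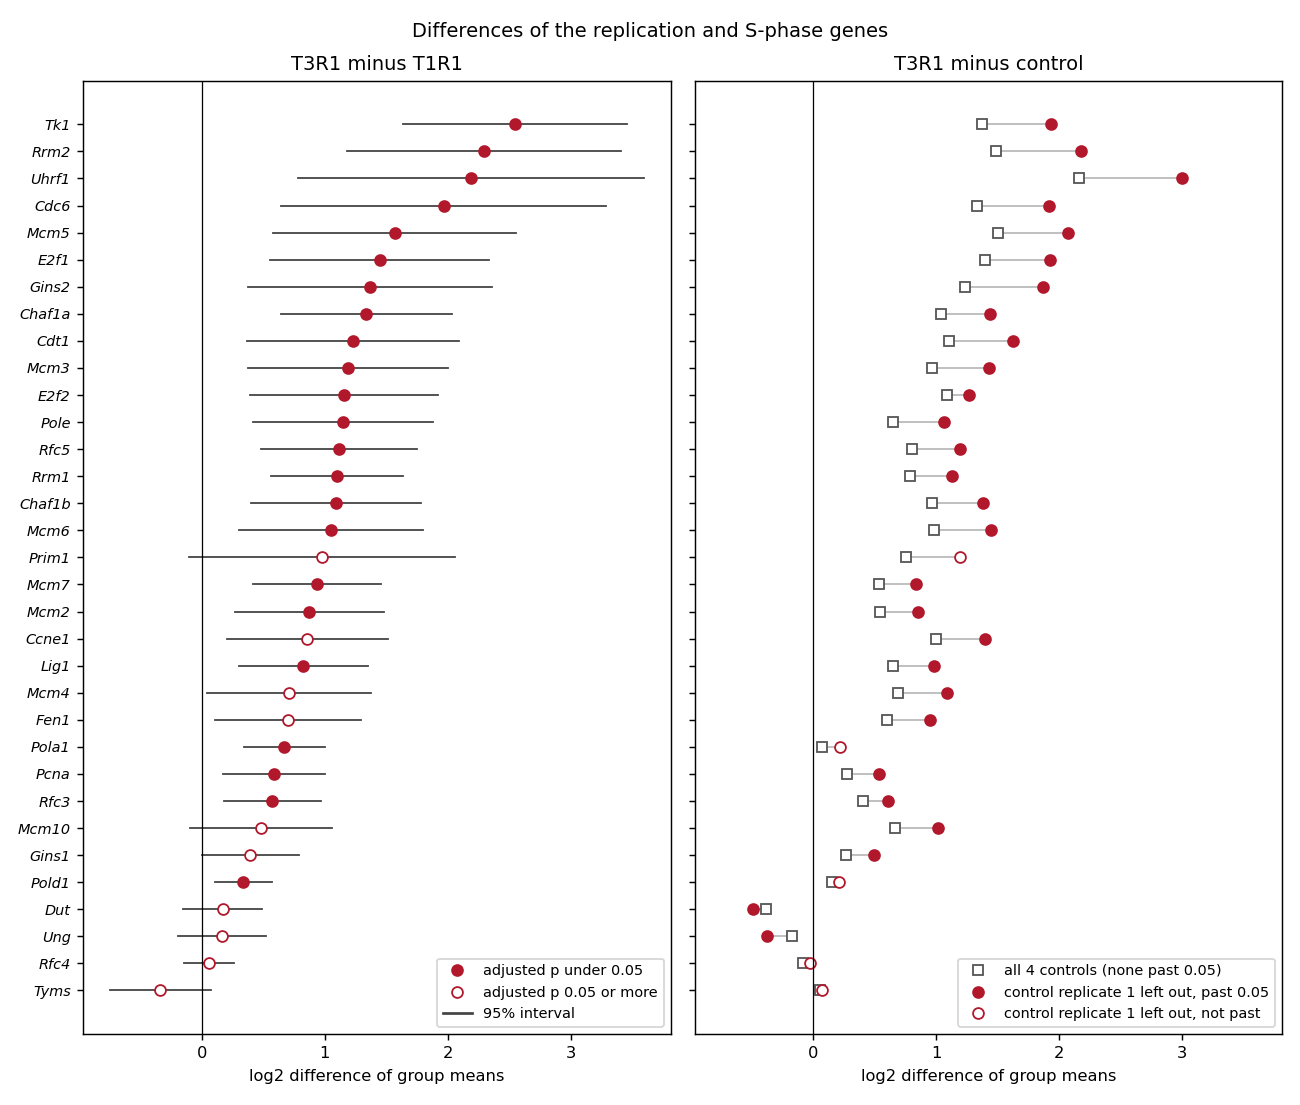
Log2 difference of the 33 genes, sorted by T3R1 minus T1R1. The left panel gives T3R1 minus T1R1 with 95% intervals, and filled points passed an adjusted p under 0.05 (23 genes). The right panel gives T3R1 minus control with all 4 control hearts (squares, 0 genes passed) and with control replicate 1 left out (circles, filled where passed, 28 genes), and for most genes the circle lies to the right of the square.

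From 2 to 3 days of exposure, 4 of the 33 genes rose, where 6.57% of all genes rose and 20.4% fell. They were Tk1 by 1.43 ± 0.43 (adjusted p = 0.0228), Chaf1a by 1.07 ± 0.33 (adjusted p = 0.0254), Rrm1 by 0.74 ± 0.25 (adjusted p = 0.0421) and Rfc3 by 0.58 ± 0.18 (adjusted p = 0.0319) in T3R1 against T2R1. The T3R1 arrays lay above the T2R1 arrays for 22 genes, where 12.4% of all genes did so. Cdc6, kept only through T3R1, is among the 22. The median difference was 0.61 against -0.09 for all genes. The count of genes that rose was 23 without control replicate 1, where 10.8% of all genes rose. It was 0 without T2R1 replicate 1 and without T3R1 replicate 1 or 3, and 1 without T2R1 replicate 3 or T3R1 replicate 2. Shares of all genes are not given for the fits without an exposed heart. T2R1 replicate 1 was the lowest T2R1 heart for 24 of the 33 genes, and the share of all genes was not counted.

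From 1 to 2 days, 0 genes passed (limma), where 0% of all genes passed, and 3 were higher at an unadjusted p under 0.05, where 5.5% of all genes were. These 3 were Tk1 at 1.12 ± 0.43 (adjusted p = 0.635), E2f2 at 0.79 ± 0.36 (adjusted p = 0.636) and Gins1 at 0.43 ± 0.19 (adjusted p = 0.635). They were singled out after their values were seen. The difference was positive for 31 of 33 genes, at a median of 0.35 against 0.05 for all genes. T1R1 replicate 2 was the highest T1R1 heart for 26 genes, and T2R1 replicate 2 or 4 the highest T2R1 heart for 30. The share of all genes with these orders was not counted. T1R1 replicate 2 and T2R1 replicate 4 also had the highest 75th percentile of their groups, at signals of 369 and 348. Other arrays did not follow this. T2R1 replicates 1 and 2 were at 315.5 and 315.6, yet their medians of the 33 genes were the lowest and highest of T2R1, at -0.42 and 0.22. T3R1 replicate 1 had the highest percentile of T3R1, at 407, and replicate 3 the highest median. The part of the percentile in the order was not tested. The comparison of T2R1 with T1R1 lay within a slide.

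Against all 4 control hearts, 0 of the 33 genes rose in T1R1 or in T2R1, where 7.75% of all genes rose in T1R1 and 14.8% in T2R1. Dut and Pola1 fell in T1R1, by 0.55 ± 0.15 (adjusted p = 0.0323) and 0.60 ± 0.15 (adjusted p = 0.0254), where 2.1% of all genes fell. Dut fell in T2R1 by 0.51 ± 0.15 (adjusted p = 0.029), where 3.59% fell, and its T2R1 arrays lay below all control arrays. These small counts changed with single arrays: in T1R1 they were 0 without control replicate 2 or T1R1 replicate 2, 3 or 4 and 1 without control replicate 3 or 4, and in T2R1 0 without control replicate 2 or 4 or T2R1 replicate 4. The shares of all genes in those fits are not given.

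Without control replicate 1, 13 genes rose and 2 fell in T2R1, where 15% of all genes rose and 9.38% fell. Here too, the fit leaves out the array that was the highest of the 16 for 25 of the 33 genes. Uhrf1 was higher in T2R1 by 1.83 ± 0.42 (adjusted p = 0.0094), Mcm5 by 1.12 ± 0.31 (adjusted p = 0.0229) and Gins2 by 1.08 ± 0.24 (adjusted p = 0.00778). In T1R1, 2 rose, Mcm10 by 0.53 ± 0.16 and Ccne1 by 0.54 ± 0.17, where 8.2% of all genes rose. Dut, Ung and Pola1 fell in T1R1 by 0.66 ± 0.15, 0.54 ± 0.11 and 0.45 ± 0.14, where 9.67% of all genes fell, and Dut and Ung fell in T2R1 by 0.62 ± 0.15 and 0.35 ± 0.11. Dut and Ung thus fell in each of the 3 exposures against control replicates 2 to 4, which all 3 comparisons share. In no exposure did the count of the 33 genes that fell exceed the share of all genes that fell. T1R1 and T2R1 also lay on the other slide from control. The F test over the 4 groups passed for 9 of the 33 genes, where 26.9% of all genes passed. Without control replicate 1 it passed for 29, where 48.8% of all genes passed.

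Other genes of the cell cycle were set beside these 33. Of 43 other replication and S-phase genes measured, 12 rose and 2 fell in T3R1 against T1R1, at a median of 0.25. Of all genes 7.63% rose and 15.3% fell. Of the 43, 1 was not well above background on any T1R1 array. Among them Ccna2 (cyclin A2) rose by 3.35 ± 0.67 (adjusted p = 0.00303, well above background on 3 of 4 T1R1 arrays) and Rfc2, a clamp loader subunit, by 0.45 ± 0.09 (adjusted p = 0.00228), while Cdc45, the helicase partner of GINS, fell by 0.35 ± 0.09 (adjusted p = 0.0157). All 20 mitosis genes measured rose, at a median of 3.18. Of these, 2 were not well above background on any T1R1 array, so this median includes sizes that are not well measured. Some genes of both lists were well above background on all 4 arrays only in T3R1. They were kept through that group alone, and the counts and medians of both lists include them. Mki67, which marks cycling cells, rose by 3.65 ± 0.71 (adjusted p = 0.0025). Top2a, the topoisomerase of dividing cells, also passed (adjusted p = 0.00997), but it was well above background on 4 of 4 T3R1 arrays and on 2 of 4 T1R1 arrays, so its size is not given. Mki67 stood at 2.64, -0.79, -1.29 and -1.45 in control hearts, -0.25, -0.98, -1.64 and -1.98 in T1R1, -0.44, 0.99, 0.45 and 0.73 in T2R1 and 2.61, 2.38, 2.62 and 2.16 in T3R1. As for the replication genes, control replicate 1 was as high as the T3R1 hearts, and T2R1 replicate 1 was the lowest T2R1 heart.

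Of the E2F, pocket protein and CDK inhibitor genes, 22 were measured, and 2 rose and 3 fell in T3R1 against T1R1, at a median of 0.11. These counts lie near the shares of all genes, of which 7.63% rose and 15.3% fell. E2f7, a repressor of E2F targets, fell by 0.96 ± 0.20 (adjusted p = 0.0044), and Ccnd2 (cyclin D2) fell by 0.38 ± 0.10 (adjusted p = 0.0177). The CDK inhibitors Cdkn2c and Cdkn2b rose by 0.78 ± 0.19 and 0.92 ± 0.27. Cdkn1a, the inhibitor p21, was at 0.61 ± 0.29 (adjusted p = 0.144). In T3R1 against control without control replicate 1, 21 of the other replication genes, 20 of the mitosis genes and 7 of the E2F list rose. In these lists 3, 0 and 4 genes fell, where 10.2% of all genes rose and 19.2% fell. Some genes measured in the replication and mitosis lists were well above background on 1 of 4 control arrays and on 4 of 4 T3R1 arrays. Such genes were kept only through T3R1 unless they were also well above background on all 4 T2R1 arrays.

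**Figure D4:**
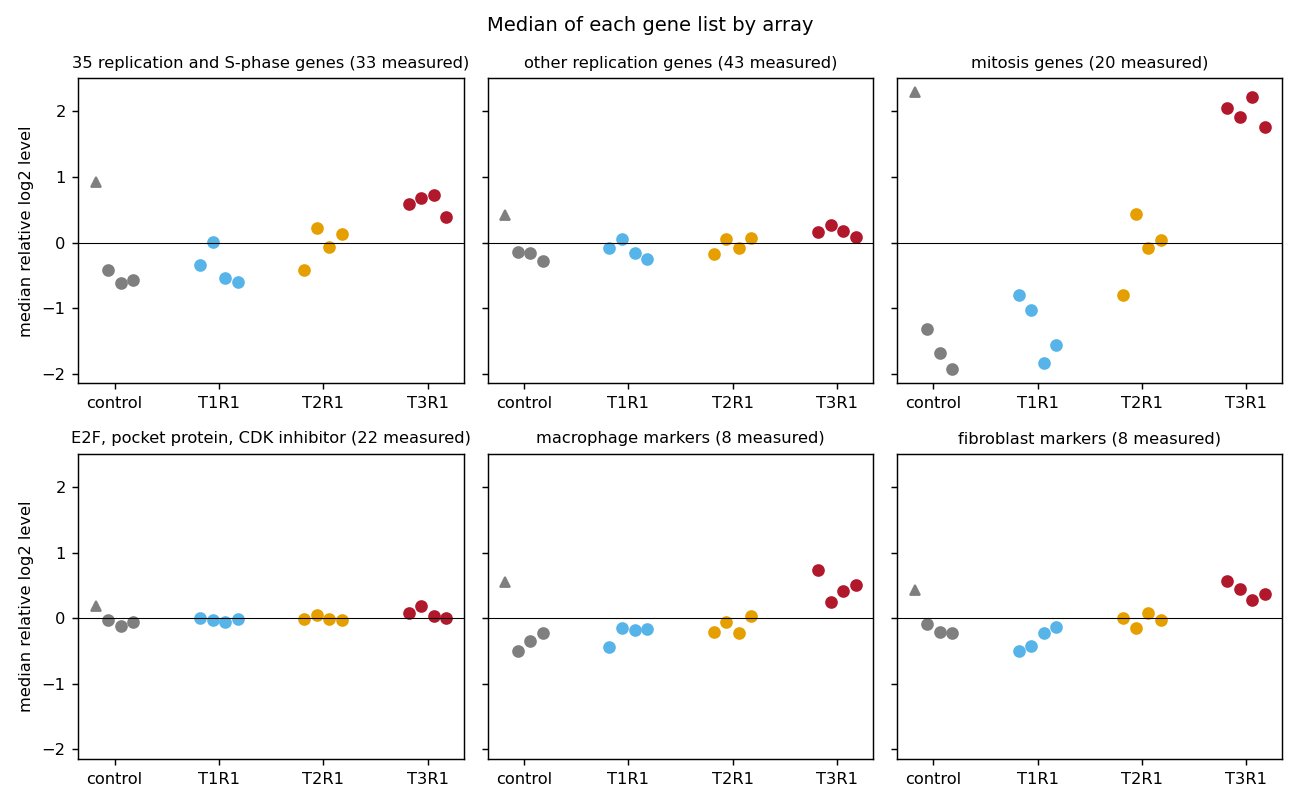
Median over the measured genes of each list of the log2 level relative to the gene's mean, on every array, with groups from control to T3R1 and the triangle for control replicate 1. The 33 replication genes lie between 0.40 and 0.73 in T3R1 hearts and between -0.61 and 0.01 in T1R1 hearts, the mitosis genes span a wider range in the same order, and macrophage and fibroblast markers are also highest in T3R1 hearts and control replicate 1.

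Thymus is a tissue rich in cells in S phase. Of 8 thymocyte markers 3 were measured, at a summed level of 0.52 to 0.71 in T3R1 and up to 6.55 in T1R1, on its replicate 1. Rag1, Rag2 and Ptcra were well above background on at most 3 of the 16 arrays. It was 1.02 to 1.14 in T1R1 replicates 2 to 4, 1.15 to 1.53 in T2R1 and 0.58 to 0.84 in control, and its part in the result was not tested. B cell markers, 4 of 5 measured, were at 4.56 in control replicate 1 and 4.34 in T1R1 replicate 1, against at most 1.82 elsewhere, and their part in the height of control replicate 1 was not tested.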

How the data were processed

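Gene expression was measured in 16 mouse hearts on 1-colour Agilent arrays with Cy3-labelled RNA, 4 hearts in each of the groups control, T1R1, T2R1 and T3R1. Per the file headers, spot intensity was extracted by Feature Extraction 10.7.3.1, whose processed signal is corrected for background, and the probe positions of the design are on mm9. The authors' deposited log2 table ranks the spots of each array as the scanner's mean signal does, and every array has a median of 6.10. No source used here names how those log2 values were normalized, and they served as an alternative.

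From the processed intensity in the deposited scanner files, log2 values were computed minus the 75th percentile of each array. Control spots and outlier spots were left out, spots of a probe were averaged, and a probe was kept if well above background on all 4 arrays of a group or more (31390 of 55681 probes). A gene name was represented by its probe of highest mean, which left 22648 genes. They were tested with limma 3.58.1 (R 4.3.3) over all 16 arrays, with 12 residual and 2.26 prior degrees of freedom, two-sided, and Benjamini-Hochberg adjustment over all genes at a threshold of 0.05. The number of arrays limits the precision, 4 per group. Errors are standard errors of the fit (SE, n = 4 hearts per group) where not named otherwise. Each array is 1 heart, so p-values measure the spread between hearts.

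The 35 genes and the lists set beside them were chosen with earlier results of these data known. Values on every array are given for genes with an adjusted p under 0.05 in a comparison or in the F test, at most 12 by the smallest F test p, and per role for the gene of highest mean and the gene of smallest F test p, 18 in all. Of the other lists, at most 4 genes by smallest F test p and Mki67, Top2a, Ccna2 and Cdkn1a may be named. Alternatives covered background correction, scaling, the deposited log2 values, the filter on dim probes, the samples in the fit, array weights, a replicate block and leaving out each array. The procedure was tested on simulated data. Promoters are those of RefSeq on GRCm38.p6.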

Additional observations from a re-analysis of the deposited data

Results flagged for a closer look

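A heart was noted where, in a group of 4, the gap between the highest or lowest level and its neighbour exceeded Dixon's 95% critical value as a share of the group's range, and chance gives this in about 1 group in 20. Of 132 groups (33 genes in 4 groups) 27 met this, 19 of them in control replicate 1. That heart was the highest control for Ccne1 at 0.84, Cdc6 at -2.36, Cdt1 at 1.56, Chaf1a at 0.0061, Chaf1b at 0.99, E2f1 at -0.23, E2f2 at 0.36, Fen1 at 2.51, Gins2 at -0.15, Mcm3 at 2.76, Mcm4 at 2.59, Mcm5 at 1.65, Mcm6 at 3.96, Mcm7 at 2.33, Pcna at 4.13, Pold1 at 1.57, Rfc5 at 1.68 and Rrm2 at 1.89, all on the log2 scale, and the lowest for Ung at 5.17. T3R1 replicate 4 was the lowest of its group for E2f1 at -0.65, Mcm2 at 0.44, Mcm5 at 1.32, Rrm2 at 0.98 and Uhrf1 at 0.97. T2R1 replicate 4 was the highest of its group for Gins1, at -0.22. T1R1 replicate 2 was the highest of its group for Mcm3, at 1.78. T3R1 replicate 2 was the highest of its group for Pola1, at 0.32. The cause of these values was not tested.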

How the results depend on the processing

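The median difference of the 33 genes stayed positive in T3R1 against control, T1R1 and T2R1 and in T2R1 against T1R1 under every alternative run. The small medians of T1R1 and T2R1 against control did not keep their direction: T2R1 was at -0.28 under array median scaling, in place of 0.10, and T1R1 at 0.11 without both control replicate 1 and T1R1 replicate 1, in place of -0.17, and leaving out single control hearts turned both. T1R1 against control was at -0.61 under array median scaling, a shift larger than 0.423, the SD between hearts of 1 group. The counts moved more. In T1R1 against control the count was 1 under quantile normalization, with no filter on dim probes and with the replicate block, 11 under array median scaling and 0 with only the 2 groups compared. In T2R1 against control it was 2 under normexp background correction, with the authors' values and with only the 2 groups compared, 0 under quantile normalization, with no filter and with the replicate block, 4 under array median scaling, 18 with array weights and 14 without both control replicate 1 and T1R1 replicate 1. In T3R1 against control it was 28 with array weights and without both of those arrays, and 6 at an adjusted p under 0.10. In T3R1 against T1R1 it was 13 with no filter and 15 with the replicate block. In T3R1 against T2R1 it was 22 under array median scaling, 7 with the authors' values, 2 with no filter, 21 with only the 2 groups and with array weights, 9 at an adjusted p under 0.10 and 23 without both arrays. The F test count was 31 under median scaling, 15 with the authors' values, 5 with no filter, 30 with array weights, 20 at an adjusted p under 0.10 and 29 without both arrays, and that test has no fit over only 2 groups. Leaving out each array in turn gave 0 to 5 and medians of -0.32 to 0.10 in T1R1 against control, 0 to 15 and -0.06 to 0.50 in T2R1 against control, 0 to 28 and 0.52 to 1.13 in T3R1 against control, 0 and 0.26 to 0.45 in T2R1 against T1R1, 7 to 28 and 0.86 to 1.09 in T3R1 against T1R1, 0 to 23 and 0.50 to 0.68 in T3R1 against T2R1, and 2 to 29 for the F test. Array median scaling put the median of all genes at -0.44, -0.37 and 0.26 in T1R1 and T2R1 against control and T3R1 against T2R1. It gave 621 genes higher and 10066 lower in T1R1 against control in place of 1755 and 476, where quantile normalization gave 745 and 673. In T2R1 against control array median scaling gave 1382 higher and 7720 lower in place of 3354 and 813. In T3R1 against T2R1 it gave 5493 and 2190 in place of 1489 and 4615. Its counts of the 33 genes thus cannot be read as particular to them. For most other counts of this section the share of all genes is not given. The numbers of replicates did not pair the arrays: 5 of 16 arrays matched their own number best, and correlations of the 24 same-numbered pairs ran from -0.32 to 0.39. The cause of these changes was not tested, except that the filter changes how many genes are tested and a left-out array how many samples. Dim probes such as that of Cdc6 limit what can be said of size.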
